A study of Mus musculus with 16 samples.

Results

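In 7 genes the effect of a deletion in rudhira differed between mouse embryos and yolk sacs past the threshold, and each had estimates of opposite sign in the 2 tissues: above 0 in the embryo and below 0 in the yolk sac for Arid3a, Arhgap29 and Ncam1, and the reverse for Igf1, Pik3r3, Grasp and Fxyd6. Only for Ncam1 did the effect pass in each tissue by itself. The 7 were 0.0938% of the genes described, beside 0.335% called of all tested genes. None of them passed when the fit paired each embryo with its own yolk sac (limma, adjusted p = 0.102 to 0.125). The measure used throughout is the genotype effect in the embryo (mutant minus wild type, log2) minus the genotype effect in the yolk sac, called the tissue difference below. A positive tissue difference means that mutant over wild type was higher in the embryo than in the yolk sac. The genes described were chosen by their deposited signal, which exceeded 30 on all 16 arrays, so that both effects could be measured, which left 7465 of 11329 tested genes and of 19038 genes with a symbol on the array. That choice used the signal on every array and not the effects, but it removed genes that were dim in 1 group. Of the 3864 genes left out, 403 were at or below 30 only in mutant yolk sacs, 29 only in wild-type yolk sacs, 53 only in mutant embryos and 114 only in wild-type embryos.

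The samples were embryos and their yolk sacs from C57BL/6J mice, taken 9.5 days post coitum from matings of heterozygotes, measured on Illumina MouseWG-6 bead arrays. The 4 groups were mutant embryos, wild-type embryos, mutant yolk sacs and wild-type yolk sacs, where mutant means that exon 6 of rudhira is deleted on both alleles (-/-) and wild type is +/+. The array names the gene Bcas3. Each group held 2 RNA samples, each measured on 2 arrays that were averaged, so n was 2 per group. By an identifier shared in the labels, each embryo and 1 yolk sac of its genotype came from the same conceptus, which makes 4 conceptuses. The deletion was in all cells, genotype was read from the embryonic tail, and the mutants were labelled as retarded in growth and abnormally vascularized, so a delay of the whole conceptus cannot be told apart from an effect of the gene in a tissue.

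Rudhira is a cytoskeletal protein of migrating endothelial cells and early blood cells that binds microtubules and intermediate filaments. The yolk sac is the site of the first blood islands and vessels, with an outer visceral endoderm that makes serum proteins and an inner mesoderm that gives rise to endothelium and blood. In the embryo proper the same days see closure of the neural tube, the first neurons, somites and a beating heart, so endothelium is a component shared by both tissues while neural and endoderm genes lie mostly in 1 of them.

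Array brightness, as the 75th percentile of signal, was 108.7 to 124 on mutant embryo arrays, 109.5 to 125.5 on wild-type embryo arrays, 67 to 74.8 on mutant yolk sac arrays and 97.6 to 140.7 on wild-type yolk sac arrays, so the mutant yolk sac arrays were the dimmest. The tissue labels held against their markers. The mean log2 level of 34 visceral endoderm genes was 5.88 to 8.59 in embryos and 11.2 to 11.7 in yolk sacs, and that of 31 neural progenitor genes was 7.71 to 8.15 in embryos and 4.82 to 4.89 in yolk sacs. Among embryos the visceral endoderm mean was 7.47 in mutant embryo 1, 7.85 in the library labelled mutant embryo 2, 5.88 in wild-type embryo 1 and 8.59 in wild-type embryo 2. In such bulk samples fewer cells of a type and less RNA per cell cannot be told apart, and p-values here reflect only the spread among these 8 samples.

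Bcas3 gave a log2 level of 8.08 in mutant embryo 1, 9.26 in the library labelled mutant embryo 2, against 8.32 and 8.60 in wild-type embryos. It gave 8.42 and 8.51 in mutant yolk sacs, against 9.60 and 9.89 in wild-type yolk sacs. The groups overlapped in the embryo, where the library labelled mutant embryo 2 was the highest, and not in the yolk sac, where both mutants were lower. The genotype effect was 0.21 (SE 0.34) in the embryo and -1.28 (SE 0.34) in the yolk sac, a tissue difference of 1.49 (SE 0.47, adjusted p = 0.167). Leaving out the library labelled mutant embryo 2 gave 0.90 (adjusted p = 0.242), and leaving out mutant embryo 1 gave 2.08 (adjusted p = 0.0255). The position of the probe relative to the deleted exon is not known here, so the library is called by its label throughout.

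Across the 7465 genes the tissue difference centred on 0, with a median of -0.02, a middle range from -0.21 to 0.18 and a full range from -1.86 to 2.23. It lay within 0.5 of 0 for 88.1% of them and beyond 1 for 80, beside a median SE of 0.165. The 2 effects had opposite signs in 53.1% of the genes, and their Pearson correlation across genes was 0.02 (Spearman -0.06), as a description over genes that share the 8 samples. Both effects had an unadjusted p under 0.01 with the same sign in 13 genes (0.174%, beside 0.238% of all tested genes) and with opposite signs in 18 (0.241%, beside 0.282%). The tissue difference passed the adjusted threshold of 0.05 in 7 genes, which is 0.0938% of the 7465 beside 0.335% of all tested genes. It was positive in 3 (0.0402%, beside 0.0706% of all tested genes) and negative in 4 (0.0536%, beside 0.265%), and 1308 genes (17.5%) had an unadjusted p under 0.05, beside 18.7% of all tested genes. The 31 called genes outside the 7465 were all at or below 30 in some yolk sac array. With each array scaled to its median, which moved the median tissue difference of the 7465 to 0.33, 19 genes passed, all of them positive. The count ran from 0 to 31 with a sample left out in turn: it was 31 without wild-type embryo 2, 17 without mutant embryo 1, 11 without mutant yolk sac 1 and 0 without each of the others. With the conceptus as a block, which pairs each embryo with its yolk sac, no gene passed (limma, 0 calls, 1193 of the 7465 at an unadjusted p under 0.05).

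**Figure D1:**
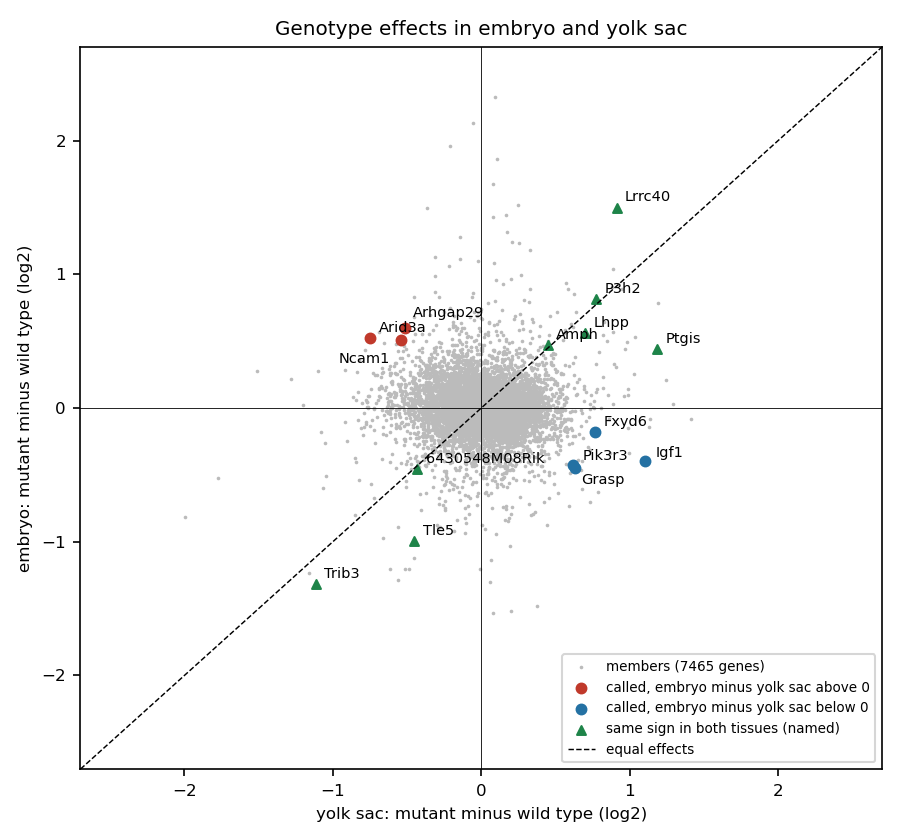
Genotype effect in the embryo (vertical axis) against that in the yolk sac (horizontal axis), both mutant minus wild type on the log2 scale, for the 7465 genes with a signal above 30 on all 16 arrays (grey). The 3 called genes with a positive tissue difference (red) and the 4 with a negative one (blue) lie in opposite corners. The 8 named genes with the same sign in both tissues (green) include P3h2 and Amph close to the dashed line of equal effects and Ptgis, Lrrc40 and Tle5 away from it.

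The genes called on the positive side had effects above 0 in the embryo (adjusted p = 0.0550 for Arid3a, 0.0399 for Arhgap29 and 0.0399 for Ncam1) and below 0 in the yolk sac (0.0382, 0.0654 and 0.0437 in the same order), so an effect within a tissue passed in part of them. Arid3a, a DNA-binding protein of the ARID family active in blood and trophoblast lineages, had log2 levels of 10.15 and 10.12 in mutant embryos, against 9.58 and 9.64 in wild-type embryos. In yolk sacs it had 9.22 and 9.39 in mutants, against 9.98 and 10.13 in wild type. Mutants lay above wild types in the embryo and below them in the yolk sac, with no overlap in either tissue. The effect was 0.52 (SE 0.10) in the embryo and -0.75 (SE 0.10) in the yolk sac, a tissue difference of 1.27 (SE 0.15, adjusted p = 0.0273, limma).

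Arhgap29, a protein that acts downstream of Rap1 in endothelial cells, had 9.75 and 9.89 in mutant embryos, against 9.31 and 9.13 in wild-type embryos. It had 8.66 and 8.59 in mutant yolk sacs, against 9.20 and 9.08 in wild-type yolk sacs. The groups did not overlap in either tissue, and the tissue difference was 1.12 (SE 0.15, adjusted p = 0.0443), from 0.60 in the embryo and -0.51 in the yolk sac. A dimmer probe of the gene, below 30 on some arrays, gave -0.13 (SE 0.16).

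Ncam1, a cell adhesion molecule of neural and mesodermal cells, had 8.68 and 8.78 in mutant embryos, against 8.19 and 8.25 in wild-type embryos. It had 7.08 and 7.14 in mutant yolk sacs, against 7.62 and 7.68 in wild-type yolk sacs. Again mutants lay above wild types in the embryo and below them in the yolk sac. The tissue difference was 1.05 (SE 0.13, adjusted p = 0.0327), while a dimmer probe gave 0.10 (SE 0.16).

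The genes called on the negative side had effects above 0 in the yolk sac that passed (adjusted p = 0.0382 for Igf1, 0.0431 for Pik3r3, 0.0431 for Grasp and 0.0330 for Fxyd6), while their embryo estimates below 0 did not pass (0.244, 0.0906, 0.103 and 0.459 in the same order). Igf1, the growth factor that drives growth of the embryo through the Igf1 receptor, had 6.55 in mutant embryo 1, 6.39 in the library labelled mutant embryo 2, against 6.83 and 6.91 in wild-type embryos. It had 7.39 and 7.74 in mutant yolk sacs, against 6.45 and 6.47 in wild-type yolk sacs. It was the highest of the 4 groups in mutant yolk sacs and the groups overlapped in neither tissue. The effects of -0.40 (SE 0.13) in the embryo and 1.10 (SE 0.13) in the yolk sac gave a tissue difference of -1.50 (SE 0.18, adjusted p = 0.0327), and a second probe above 30 on all arrays gave -1.40 (SE 0.17).

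Pik3r3, a regulatory subunit of phosphoinositide 3-kinase, had 9.27 and 9.14 in mutant embryos, against 9.68 and 9.62 in wild-type embryos. It had 6.59 and 6.78 in mutant yolk sacs, against 6.04 and 6.08 in wild-type yolk sacs. Mutants lay below wild types in the embryo and above them in the yolk sac, and its level was lower in all yolk sacs than in all embryos. The tissue difference was -1.08 (SE 0.14, adjusted p = 0.0433), and a dimmer probe gave -0.67 (SE 0.27).

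Grasp, a scaffold protein of receptor trafficking, had 8.06 and 8.09 in mutant embryos, against 8.56 and 8.44 in wild-type embryos. It had 7.44 and 7.29 in mutant yolk sacs, against 6.70 and 6.81 in wild-type yolk sacs. The groups overlapped in neither tissue. The tissue difference was -1.04 (SE 0.14, adjusted p = 0.0443), and its dimmer probes gave -0.998 and 0.26, so they disagree.

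Fxyd6, a small regulator of the sodium and potassium pump, had 12.04 and 11.97 in mutant embryos, against 12.20 and 12.16 in wild-type embryos. It had 10.28 and 10.29 in mutant yolk sacs, against 9.52 and 9.51 in wild-type yolk sacs. Its tissue difference of -0.95 (SE 0.12, adjusted p = 0.0356) came mostly from the yolk sac, where the effect was 0.77 (SE 0.08), while the embryo effect was -0.18 (SE 0.08).

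**Figure D2:**
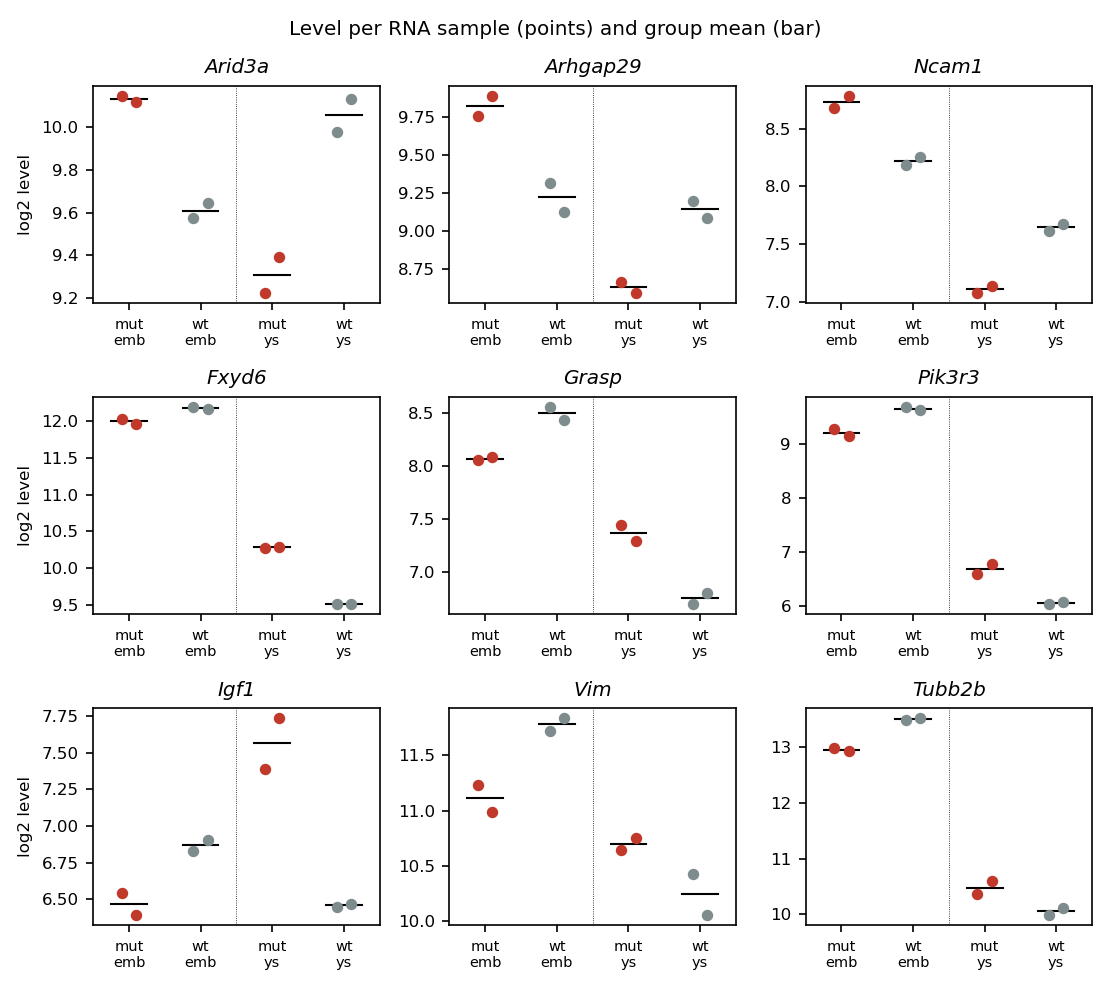
Log2 level in each RNA sample (points, each the mean of 2 arrays) and the group mean (bar) for the 7 called genes and for Vim and Tubb2b, which did not pass, with mutant (red) left of wild type (grey) for embryos and then yolk sacs. In all 9 genes the normalized mutant and wild-type points do not overlap in either tissue and the direction turns over between the tissues. These genes were named for a small p of the tissue difference. In the deposited signals, unscaled between arrays, the yolk sac groups overlapped for Pik3r3, Grasp, Vim and Tubb2b. For Pik3r3 these signals were 53.85 and 68.65 in mutants, against 47.4 and 61.05 in wild types.

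These 7 calls rest on small groups. With each array scaled to its median, 0 genes passed on the negative side, so Igf1, Pik3r3, Grasp and Fxyd6 did not. None of the 7 passed without the library labelled mutant embryo 2 (adjusted p = 0.120 to 0.144), wild-type embryo 1 (0.104 to 0.127), mutant yolk sac 2 (0.0687 to 0.109), wild-type yolk sac 1 (0.0770 to 0.0787) or wild-type yolk sac 2 (0.117 to 0.136), nor with the conceptus as a block (0.102 to 0.125). Without mutant embryo 1 Ncam1, Igf1, Arid3a, Fxyd6 and Pik3r3 passed, without wild-type embryo 2 Arid3a and Igf1, and without mutant yolk sac 1 Igf1, Arid3a and Pik3r3. Arhgap29 and Grasp passed in none of these 8 fits.

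**Figure D3:**
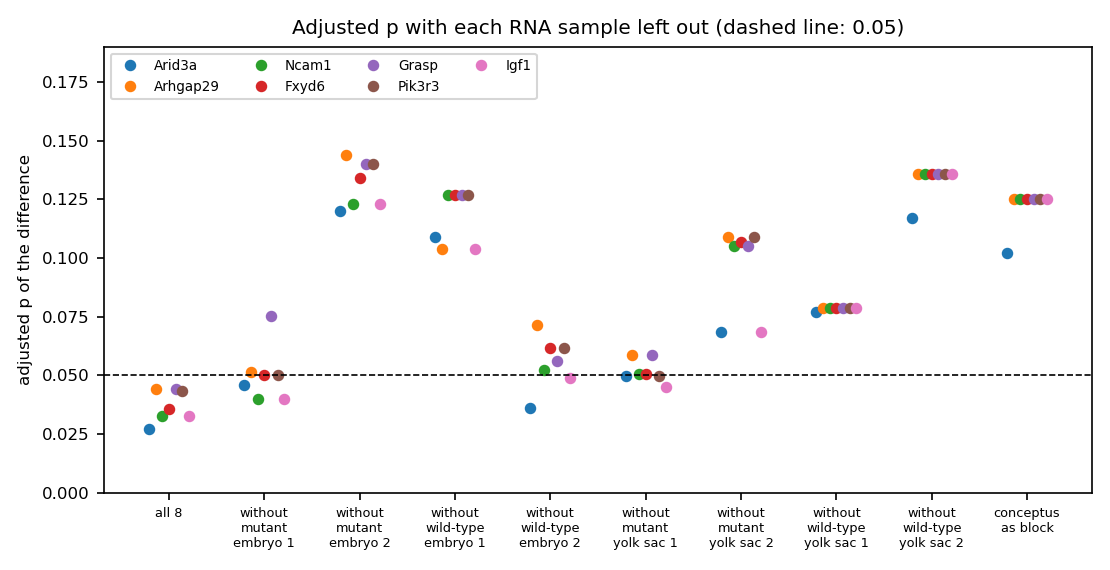
Adjusted p of the tissue difference of the 7 called genes (vertical axis) with all 8 RNA samples, with each left out in turn, and with the conceptus as a block (horizontal axis). All 7 lie under the dashed threshold of 0.05 with all samples, and none does without the library labelled mutant embryo 2 or with the block.

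The next genes by p had adjusted p from 0.0509 to 0.0623 and did not pass. On the positive side, Arhgap24, a GTPase-activating protein for Rac, had 8.35 in mutant embryo 1, 8.83 in the library labelled mutant embryo 2, against 7.48 and 7.44 in wild-type embryos. It had 7.61 and 7.45 in mutant yolk sacs, against 7.90 and 7.79 in wild-type yolk sacs, a tissue difference of 1.44 (SE 0.22). Podxl, a sialomucin of vessel lumens and epithelia, stood at 1.12, Diaph3, a formin that builds actin filaments, at 0.98, Pik3ca, the catalytic subunit that pairs with regulatory subunits such as Pik3r3, at 0.96, Arhgef5 at 0.84, Coro1c, an actin-binding coronin, at 0.82, and Cgnl1, a junction protein, at 0.81. Golph3l, a Golgi protein, stood at 0.82 and Hrob, a factor of DNA recombination, at 0.73. A second probe of Cgnl1 gave 0.41, and the lowest signals of Pik3ca and Hrob were 33.1 and 35.4. Arhgef5, Coro1c and Golph3l had embryo effects of 0.06, 0.04 and -0.10 beside yolk sac effects of -0.77, -0.77 and -0.92.

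On the negative side, Gli3, a transcription factor of the Hedgehog pathway, had 11.29 and 11.18 in mutant embryos, against 11.45 and 11.47 in wild-type embryos. It had 7.66 and 7.53 in mutant yolk sacs, against 6.91 and 6.91 in wild-type yolk sacs, a tissue difference of -0.91 (SE 0.13), while a dim probe gave -0.07. Hes6, a partner of Hes1 that promotes neuronal and muscle differentiation, stood at -1.01, and its 2 other probes gave -1.08 and -0.77. Limch1, an activator of non-muscle myosin, stood at -1.28, the tetraspanins Tspan17 and Tspan18 at -1.22 and -0.96, the RNA-binding Khdrbs3 at -1.21 and the methionine sulfoxide reductase Msrb2 at -0.88.

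A few genes had effects of the same sign in both tissues. Trib3, a pseudokinase and target of Atf4, had 6.21 in mutant embryo 1, 5.36 in the library labelled mutant embryo 2, against 7.11 and 7.11 in wild-type embryos. It had 7.68 and 7.60 in mutant yolk sacs, against 8.80 and 8.71 in wild-type yolk sacs. Mutants were lower in both tissues with no overlap, at -1.32 (SE 0.24) in the embryo and -1.11 (SE 0.24) in the yolk sac. Lrrc40 stood at 1.50 in the embryo and 0.91 in the yolk sac, P3h2, a collagen prolyl hydroxylase, at 0.82 and 0.77, and Ptgis, prostacyclin synthase, at 0.44 and 1.18. Lhpp stood at 0.56 and 0.70 and Amph at 0.47 and 0.45, while Tle5, a Groucho-family corepressor, stood at -0.99 and -0.45 and 6430548M08Rik at -0.45 and -0.43. These 8 were chosen for their effects, so their values are a description.

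Endothelial genes had a negative tissue difference as a list. Of 29 measured members 27 were negative and 2 positive, 0 passed the adjusted threshold, and 13 were negative and 0 positive at an unadjusted p under 0.05, beside 8.88% negative and 8.64% positive among all 7465 and 9.55% and 9.14% among all tested genes. The median was -0.37, from medians of -0.13 in the embryo and 0.35 in the yolk sac. With median scaling, where the median of the 7465 was 0.33, 1 was positive and 2 were negative at an unadjusted p under 0.05. Relative to the 7465 the list stood at -0.47 to -0.32 over the settings tried.

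Hey1, an arterial target of Notch signalling, had 10.04 and 10.06 in mutant embryos, against 10.20 and 10.19 in wild-type embryos. It had 7.17 and 7.72 in mutant yolk sacs, against 6.36 and 6.27 in wild-type yolk sacs. Its tissue difference of -1.27 (SE 0.23, adjusted p = 0.0647) thus lay almost wholly in the yolk sac, and it was under the threshold in 1 of the 8 fits with a sample left out. Notch4, a Notch receptor of endothelium, had 8.51 in mutant embryo 1, 8.28 in the library labelled mutant embryo 2, against 8.94 and 8.94 in wild-type embryos, and 7.98 and 8.04 in mutant yolk sacs, against 7.73 and 7.64 in wild-type yolk sacs. Its tissue difference was -0.87 (SE 0.15, adjusted p = 0.0623), and a dimmer probe gave -0.25. In the deposited signals, unscaled between arrays, the yolk sac groups of Notch4 overlapped. They were 166.7 and 192.6 in mutants, against 191.6 and 233.8 in wild types. For Hey1 they did not overlap, at 87.05 and 149.8 in mutants, against 64 and 73.35 in wild types.

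Pecam1, a junction protein of endothelium, had 7.38 and 7.26 in mutant embryos, against 7.54 and 7.50 in wild-type embryos. It had 8.38 and 8.46 in mutant yolk sacs, against 7.93 and 7.86 in wild-type yolk sacs, a tissue difference of -0.73 (SE 0.13, adjusted p = 0.0641), while a second probe gave -0.28. The transcription factors Sox7 and Fli1 stood at -0.87 and -0.79, the gap junction protein Gja5 at -1.04, and the guidance receptor Robo4 at -0.76. In the deposited signals the yolk sac groups overlapped for Pecam1 and Fli1. For Pecam1 these were 226.6 and 268.2 in mutants, against 224.2 and 279.8 in wild types. Robo4 had its effect in the embryo (-0.86 beside -0.10 in the yolk sac) and Sox7 in the yolk sac (0.09 in the embryo beside 0.96). The tight junction protein Cldn5 stood at -0.68, Mmrn2 at -0.64, Icam2 at -0.63, the nitric oxide synthase Nos3 at -0.58, the receptor Tie1 at -0.49 and the adhesion molecule Esam at -0.32. Tek, the angiopoietin receptor, had effects of 0.45 in the embryo and 0.40 in the yolk sac, a tissue difference of 0.06. The mean level of the 38 tested endothelial genes was 7.73 and 7.74 in mutant embryos, 7.77 and 7.85 in wild-type embryos, 8.25 and 8.26 in mutant yolk sacs and 8.00 and 7.98 in wild-type yolk sacs. Whether the number of endothelial cells took part in this was not tested.

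**Figure D4:**
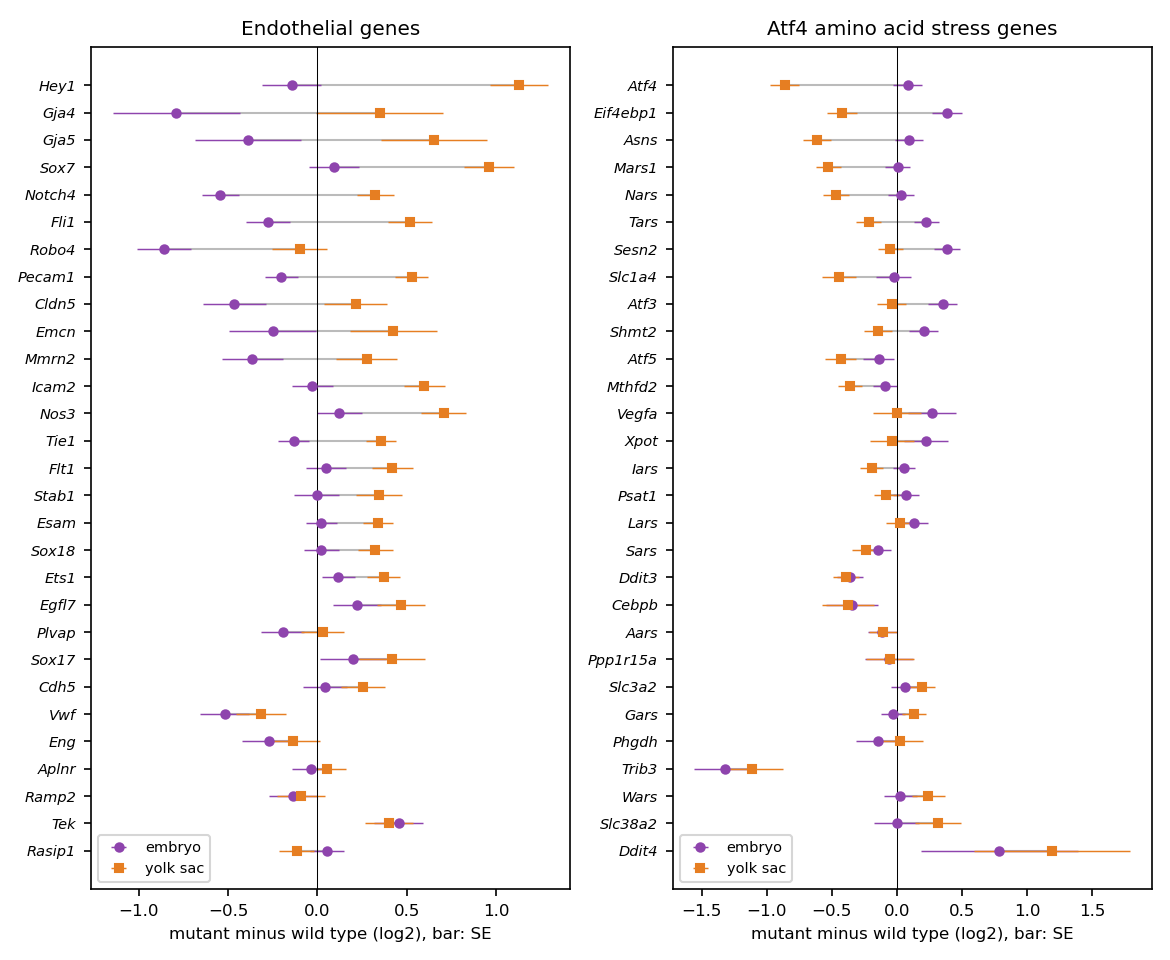
Genotype effect (mutant minus wild type, log2, with SE as bars) in the embryo (circles) and the yolk sac (squares) for the 29 endothelial genes (left) and the 29 genes of the Atf4 amino acid stress response (right), sorted by tissue difference. Squares lie to the right of circles in 27 of the 29 endothelial genes, and circles lie to the right of squares in 20 of the 29 Atf4 genes.

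Genes of the amino acid stress response run by Atf4, a transcription factor whose translation goes up when amino acids are short, had a positive tissue difference as a list. Of 29 measured members 20 were positive and 9 negative, 0 passed the adjusted threshold, and 8 were positive and 0 negative at an unadjusted p under 0.05, beside 8.64% and 8.88% of the 7465 (14 and 0 with median scaling). The median was 0.25, from 0.03 in the embryo and -0.15 in the yolk sac.

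Atf4 itself had 11.03 and 11.01 in mutant embryos, against 11.05 and 10.82 in wild-type embryos. It had 10.39 and 10.20 in mutant yolk sacs, against 11.11 and 11.21 in wild-type yolk sacs. The groups overlapped in the embryo and not in the yolk sac, and the tissue difference was 0.95 (SE 0.16, adjusted p = 0.0623), while a second probe of like brightness gave 0.30 (SE 0.19). Eif4ebp1, an inhibitor of cap-dependent translation, stood at 0.81, from 0.38 in the embryo and -0.42 in the yolk sac.

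Asns, asparagine synthetase, had 10.95 and 10.72 in mutant embryos, against 10.72 and 10.77 in wild-type embryos. It had 10.07 and 10.19 in mutant yolk sacs, against 10.73 and 10.75 in wild-type yolk sacs, a tissue difference of 0.70 (SE 0.15, adjusted p = 0.0793) that its other probes gave as 0.56 and 0.59. The aminoacyl-tRNA synthetase genes Mars1, Nars and Tars stood at 0.54 (second probe 0.21), 0.50 and 0.44, with effects of -0.53, -0.47 and -0.22 in the yolk sac, while the synthetase genes Iars, Lars, Sars, Aars, Gars and Wars stood at 0.25, 0.10, 0.09, -0.01, -0.16 and -0.21. The stress proteins Sesn2 and Atf3 stood at 0.44 and 0.39 with their effects in the embryo (0.38 and 0.35). Trib3 and Ddit3, both targets of Atf4, had estimates below 0 in both tissues, with Ddit3 at -0.36 in the embryo and -0.39 in the yolk sac and a tissue difference of 0.03. Dimmer probes of Trib3 gave tissue differences of 0.21 and 0.43.

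Atf4 binds DNA with C/EBP proteins at an element whose core was searched as TGATGNAA on both strands, N being any base, in RefSeq promoter windows (GRCm38.p6) of 250 bases before to 50 after each gene's start. It occurred in 8 of the 25 list members that had such a window, beside 4.51% of all 27025 genes with a window and 2.46% of the 6132 genes among the 7465 that had one. The list was drawn up as genes run by Atf4, so its share says nothing about the effects measured here. The stretches of the 5 genes whose match lay before the start are shown so that the element can be read in its place, with the matched bases in capitals. They are given on the gene's strand in the order of the tissue difference p.

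Asns, chr6:7693210-7693277, minus strand: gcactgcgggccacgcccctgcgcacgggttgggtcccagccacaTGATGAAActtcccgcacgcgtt

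Tars, chr15:11399659-11399718, minus strand: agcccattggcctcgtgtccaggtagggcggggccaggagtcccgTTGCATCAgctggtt

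Atf3, chr1:191183391-191183488, minus strand: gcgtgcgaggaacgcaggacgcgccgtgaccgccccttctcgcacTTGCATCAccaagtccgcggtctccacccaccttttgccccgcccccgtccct

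Gars, chr6:55037926-55038000, plus strand: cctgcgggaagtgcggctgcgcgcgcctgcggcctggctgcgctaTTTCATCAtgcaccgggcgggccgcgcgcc

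Aars, chr8:111033685-111033782, plus strand: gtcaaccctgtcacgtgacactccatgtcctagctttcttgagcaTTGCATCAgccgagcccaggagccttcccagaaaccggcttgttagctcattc

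Asns carried the core on its own strand and the other 4 on the opposite one. The tissue difference was 0.70 for Asns, 0.44 for Tars and 0.39 for Atf3, but -0.16 for Gars and -0.01 for Aars, so 3 of these 5 genes were positive. The match is a description of the sequence, and binding was not measured.

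Simple epithelial keratins led the list of trophoblast and decidua genes; these keratins are also made by yolk sac endoderm. Of 8 measured members 6 were positive, 0 passed the adjusted threshold, and the median was 1.01. The negative members were Plac1 at -0.51 and Des at -0.46, while Dcn and Lum stood at 1.26 and 0.57. Plac1 had effects of 0.53 in the embryo and 1.04 in the yolk sac. At an unadjusted p under 0.05, 4 were positive and 0 negative, beside 8.64% and 8.88% of the 7465. Krt7 had 8.11 and 7.89 in mutant embryos, against 7.76 and 8.19 in wild-type embryos. It had 9.30 and 9.38 in mutant yolk sacs, against 10.57 and 10.51 in wild-type yolk sacs, so its tissue difference of 1.22 (SE 0.21, adjusted p = 0.0624) came from the yolk sac. Krt18 had 9.85 and 9.97 in mutant embryos, against 8.73 and 9.43 in wild-type embryos, and its tissue difference was 1.29 (SE 0.29), beside 1.18 for Krt8 and 0.85 for Krt19. Wild-type embryo 1 was the lowest embryo for Krt8, Krt18 and Krt19, and it also had the lowest visceral endoderm mean (5.88). Relative to the 7465, the list stood at 0.72 without wild-type embryo 1 and at 1.27 without wild-type embryo 2, and the part of endoderm carried with the embryos was not tested.

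The visceral endoderm list held the largest value of all, Spink1, a secreted trypsin inhibitor, at 2.23, but with an SE of 1.63. It had 10.73 and 11.74 in mutant embryos, against 6.77 in wild-type embryo 1 and 11.06 in wild-type embryo 2. Of its 15 measured members 13 were positive, but 0 had an unadjusted p under 0.05, the median was 0.85, and 34 genes of the list were tested in all. Relative to the 7465 the list stood at -0.52 without wild-type embryo 1 and at 2.23 without wild-type embryo 2, and Spink1 at 0.0866 and 4.38 in the same fits, so the sign of the list turned with 1 sample.

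Genes of glycolysis and hypoxia had a median of 0.18 over 31 members, with 5 positive and 0 negative at an unadjusted p under 0.05 (8.64% and 8.88% of the 7465; 11 and 0 with median scaling) and 0 past the adjusted threshold. Aldoa, a glycolytic aldolase, had 12.64 in mutant embryo 1, 13.00 in the library labelled mutant embryo 2, against 12.40 and 12.29 in wild-type embryos. It had 11.43 and 11.68 in mutant yolk sacs, against 12.15 and 12.12 in wild-type yolk sacs, a tissue difference of 1.05 (SE 0.20, adjusted p = 0.0663). The glucose transporter Slc2a3, the glycolytic Pgk1 and the prolyl hydroxylase P4ha2 stood at 0.92, 0.91 and 0.76, all highest among embryos in the library labelled mutant embryo 2, and the lysyl hydroxylase Plod1 at 0.67. Other probes of Pgk1 gave 0.42 and -0.07, and a second probe of P4ha2 gave 1.11. Relative to the 7465 the list stood at 0.20 with all samples, at -0.02 without that library and at 0.49 without mutant embryo 1.

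Targets of p53 and genes of growth arrest leaned the other way, with a median of -0.27 over 20 members, 16 negative and 4 positive, and 5 negative and 1 positive at an unadjusted p under 0.05, beside 8.88% and 8.64% of the 7465. With median scaling 2 were negative and 1 positive. Plk3, a stress-responsive kinase, had 6.58 and 5.77 in mutant embryos, against 7.59 and 7.79 in wild-type embryos. It had 6.76 and 7.07 in mutant yolk sacs, against 6.72 and 6.71 in wild-type yolk sacs, a tissue difference of -1.72 (SE 0.35). Gadd45g, a stress and differentiation protein, stood at -0.99, and a second probe gave -1.27. The cell cycle inhibitors Cdkn1b and Cdkn1a stood at -0.59 and -0.56, Mdm2, the ligase that degrades p53, at -0.41, and Sesn2 at 0.44. The other probes of Cdkn1a gave -0.02 and -0.27.

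Genes of the cytoskeleton had no common direction. Vim, the intermediate filament protein vimentin, had 11.23 and 10.99 in mutant embryos, against 11.72 and 11.84 in wild-type embryos. It had 10.64 and 10.75 in mutant yolk sacs, against 10.43 and 10.05 in wild-type yolk sacs, a tissue difference of -1.13 (SE 0.21, adjusted p = 0.0656). Tubb2b, a beta tubulin of neural cells, stood at -0.97 (SE 0.15, adjusted p = 0.0575), and its other probes gave -0.54 to -1.44, while the tubulin genes Tubb6, Tuba1b, Tubb4b, Tuba1a and Tubb5 stood at 0.61, 0.02, -0.02, -0.16 and -0.23. The GTPase Cdc42 stood at 0.67, the actin-nucleating subunit Arpc2 at 0.66 and the myosin Myh9 at 0.44. A second probe of Cdc42 gave -0.59. The actin gene Actb stood at -0.25 and its regulators Cfl1, Pfn1 and Zyx at -0.19, -0.15 and -0.30. Over the 22 members the median was 0.04, with 0 past the adjusted threshold. At an unadjusted p under 0.05, 3 were positive and 2 negative, beside 8.64% and 8.88% of the 7465.

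Genes of insulin-like growth factor signalling and imprinted growth control held the single called member Igf1 among 20, beside 0.0938% called of the 7465. Their median was -0.02. At an unadjusted p under 0.05, 5 were negative and 1 positive, beside 8.88% and 8.64% of the 7465. The binding protein genes were measured by 4 members. Igfbp2 had 10.25 and 10.45 in mutant embryos, against 10.26 and 10.24 in wild-type embryos, and 9.24 and 9.26 in mutant yolk sacs, against 8.35 and 8.16 in wild-type yolk sacs. Its tissue difference was -0.89 (adjusted p = 0.0623), with a second probe at -0.40. Igfbp3 stood at -1.26 (second probe -0.16) and Igfbp5 at -0.71 (other probes -0.35 and -0.11), and Igfbp4 at -0.02. None of them passed. The imprinted Nnat stood at -1.44 and the imprinted Peg10 at 0.87.

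Neural genes could mostly not be followed, because they were dim in the yolk sac. Of 30 tested genes of neuronal differentiation 4 had a signal above 30 on all arrays, and Dpysl3, Gap43 and Rtn1, proteins of axon growth and neuronal membranes, stood at -1.42, -0.94 and -0.89 beside the called Ncam1 at 1.05. Of 31 neural progenitor genes 4 were measured. The transcription factor Sox11 and the intermediate filament Nes stood at -1.13 and -1.12, Irx3 at -0.29 and Notch1 at 0.09. In the list of facial mesenchyme and neural crest (12 members, median -0.31) the transcription factors Twist2 and Sox9 stood at -1.05 and -0.59, and Ednrb, the endothelin receptor, at -0.56. In that of somites, tailbud and Hox genes (7 members, median -0.01) Hoxb5 stood at -1.08, Hoxb6 at -0.59 and Wnt5a at -0.54, against 0.71 for Hoxb7 and 0.98 for Hoxc6. Of the 2 cardiac members Tnnc1, a troponin, stood at -0.75.

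Primitive erythroid genes had a median of -0.36 over 23 members, 18 negative and 5 positive. At an unadjusted p under 0.05, 1 was positive and 1 negative, beside 8.64% and 8.88% of the 7465. The mean level of all 31 tested genes of this list was 8.75 in mutant embryo 1, 7.94 in the library labelled mutant embryo 2, against 8.83 and 8.93 in wild-type embryos. Relative to the 7465 the list stood at -0.33 with all samples, at 0.12 without that library and at -0.70 without mutant embryo 1. The globin genes Hba-a1, Hba-x, Hbb-bh1 and Hbb-y stood at -0.93, -0.64, -0.50 and -0.41, none at an unadjusted p under 0.05. Tfrc, the transferrin receptor, went the other way at 0.90, with effects of -0.18 in the embryo and -1.08 in the yolk sac. Its second probe gave 0.81. In the list of heme synthesis and iron uptake (17 members, median -0.03) Cpox, an enzyme of heme synthesis, stood at -0.67, while its other probes gave 0.07 and 0.13, and Hmox1, which breaks heme down, at 0.64.

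Several other lists had medians close to 0. The median was 0.02 over 49 cytosolic ribosomal proteins, -0.11 over 61 subunits of the mitochondrial respiratory chain, 0.04 over 40 genes of DNA replication and mitosis, 0.04 over 22 genes of the unfolded protein response, 0.13 over 14 of cholesterol synthesis and 0.09 over 23 collagens and basement membrane genes. In the respiratory chain list 44 members were negative and 17 positive. Among collagens and basement membrane genes 3 were positive and 1 negative at an unadjusted p under 0.05, beside 8.64% and 8.88% of the 7465. These were Col4a5 at 0.69, Lama5 at 0.66 and Col6a1 at 0.56, against Nid1 at -0.70. Heat shock genes lay further from 0, with a median of 0.24 over 15 members, beside 0.25 for the Atf4 list. Of the 15, 13 were positive and 2 negative. At an unadjusted p under 0.05, 3 were positive and 1 negative, beside 8.64% and 8.88% of the 7465. The chaperone Hspa4 led at 0.66, while Hsp90aa1 stood at 0.49 with a second probe at -0.05. Immediate early genes (12 members) stood at -0.21, amino acid transporters (6) at -0.10 and macrophage and blood progenitor genes (3) at -0.18. In each of these lists 0 members passed the adjusted threshold.

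**Figure D5:**
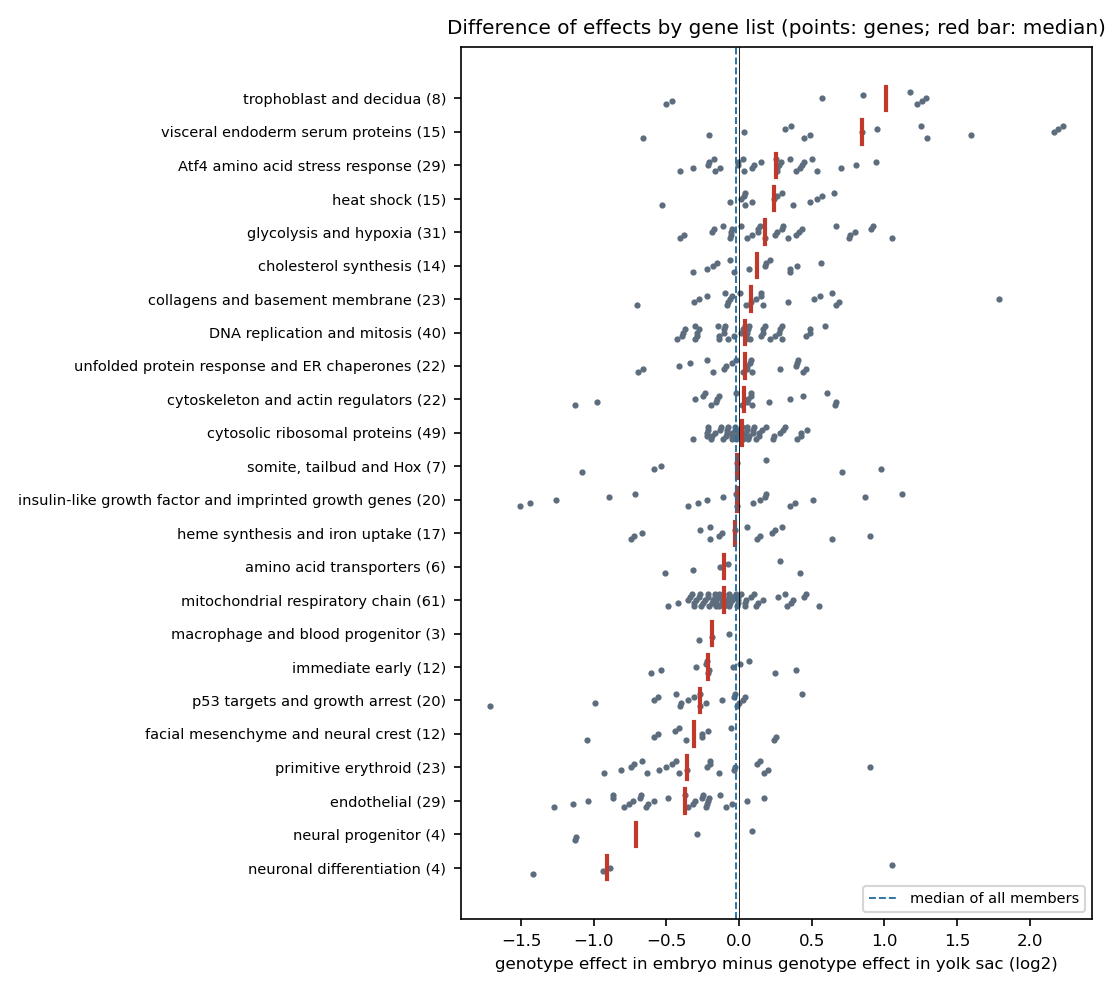
Tissue difference (log2) of each measured gene (points) and the median (red bar) of the 24 lists with 3 or more measured members, with the number of members in brackets and the median of all 7465 genes as a dashed line. The neuronal, neural progenitor and endothelial lists lie lowest and the trophoblast and visceral endoderm lists highest, and the ribosomal and replication lists lie close to the dashed line.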

How the data were processed

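The 16 arrays measured 8 RNA samples, 2 arrays each, in 4 groups of 2 set by the genotype and tissue labels. Intensity per probe, linear and unscaled between arrays, came from a deposited table from which the authors had taken off the background. The authors' software is not given in the sources used here. Columns that its header calls p-values hold, as deposited, a score from 0 to 1 that did not follow the signals beside it (Spearman 0.00157 to 0.0106 per array), so scores were matched to signals by rank, an assumption the sources do not settle. The processed values deposited by the authors are log2 values centred within a tissue and were used as an alternative. The table had 20 unnamed empty columns and 0 columns of values left unmatched to a sample.

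Signals were normalized with neqc (offset 16) in limma 3.58.1 under R 4.3.3, with the background taken from the matched scores, and repeat arrays (r = 0.996 to 0.998) were averaged. Of 45281 probes 34885 carried 1 symbol, 18 several and 10378 none, and 29 symbols were updated through RefSeq. Probes detected at p under 0.05 on at least 4 arrays were kept (21193), and each gene was read by its kept probe with the highest mean level. In 2568 of the 7465 genes other probes also exceeded 30 on all arrays, which made 3518 pairs of probes. The tissue difference had the same sign in 62.1% of these pairs (r = 0.41), so each value stands for 1 probe. A linear model with 1 mean per group (lmFit, eBayes, 4 residual and 3.38 prior degrees of freedom) gave both genotype effects and their difference. Two-sided p-values were adjusted by Benjamini-Hochberg over all 11329 genes. The 2 RNA samples per group limit the precision, and the smallest exact permutation p for 2 against 2 samples is 0.333.

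Embryo and yolk sac of a conceptus pair by the shared identifier in the labels, and their deviations from the group means correlated at 0.22 in mutants and 0.04 in wild types. The conceptus as a block was an alternative, beside other normalizations, offsets, filters and each sample left out. The fit was tested on simulated data. Named were Bcas3, the 12 leading genes in each direction (filled by the smallest p where fewer passed), 6 called genes with opposite and 8 with the same sign in both tissues, and up to 4 leading genes of each of 25 lists. Other list members, the second probes and the promoter element were chosen after their values were seen. The members and lists were chosen with earlier results of these data known.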

Additional observations from a re-analysis of the deposited data

Results flagged for a closer look

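The tissue difference of 7 genes passed in the fit that did not pair each embryo with its yolk sac. They were Arid3a (1.27), Arhgap29 (1.12), Ncam1 (1.05), Fxyd6 (-0.95), Grasp (-1.04), Pik3r3 (-1.08) and Igf1 (-1.50). None of them passed with the conceptus as a block. The groups held 2 samples, too few to look for single samples far from the rest of a group.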

How the results depend on the processing

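Of all tested genes 38 passed and of the 7465 genes 7. The counts were 21 and 4 without normexp, 2 and 0 with the authors' processed values, 158 and 76 with an offset of 50, 14 and 2 with the first arrays only, 0 and 0 with the embryo pair of the series design, 81 and 30 with no probe filter, and 0 and 0 with the conceptus as a replicate block, which pairs the samples. With median scaling 19 of the 7465 passed and with a trend in the prior variance 17. Leaving out each sample in turn gave 0 to 94 and 0 to 31. Quantile normalization within a tissue gave 38 and 8.

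List medians below are relative to the median of the 7465. With a sample left out, they ran from -0.47 to -0.32 for endothelial genes, 0.18 to 0.29 for the Atf4 response, -0.0161 to 0.49 for glycolysis and hypoxia, -0.30 to -0.17 for p53 targets, 0.72 to 1.27 for trophoblast and decidua and -0.0441 to 0.0525 for the cytoskeleton. The visceral endoderm list ran from -0.52 to 2.23 and stood at -0.90 with the embryo pair of the series design. The endothelial list stood at -0.38 with the first arrays only and -0.40 with the embryo pair of the series design, where trophoblast and decidua stood at 0.71. The Atf4 list stood at 0.22 with the authors' processed values and 0.21 with the first arrays, and p53 targets at -0.20 with an offset of 50. The cytoskeleton stood at -0.0222 with median scaling, -0.0425 with the processed values and 0.0038 with the first arrays.

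Of 2245 values of named genes under an alternative, 2035 kept direction and side of the threshold. The 7 called genes did so less often. Among 17 alternatives it was 9 for Arid3a, 7 for Igf1, 6 for Ncam1 and 6 for Pik3r3. It was 5 for Fxyd6, 4 for Arhgap29 and 2 for Grasp. Of the 2245 values 20 turned over, all in genes that did not pass. Median scaling did so for Lmo2 (0.0741), Kit (0.16), Tal1 (0.30), Irx3 (0.12), Mef2c (0.17), Rpl21 (0.0638), Slc38a2 (0.0665), Slc3a2 (0.24) and Btg1 (0.0842), as did the first arrays for Slc3a2 (0.0233). The embryo pair gave -0.42 for Spink1, 0.0937 for Tal1 and -0.0811 for Stard4. With a sample left out, Kit ran from -0.49 to 0.13, above 0 without mutant embryo 1 or mutant yolk sac 2. Tal1 ran from -0.57 to 0.44, above 0 without the library labelled mutant embryo 2, mutant yolk sac 2 or wild-type yolk sac 1, and Notch1 from -0.0712 to 0.253, below 0 without wild-type embryo 2 or wild-type yolk sac 2. The causes were not tested. Signals near the background and groups of 2 limit what could pass.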
